A study of Mus musculus with 10 samples.

Results

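The genes described here encode the subunits of the proteasome, its assembly factors and its activators, measured with microarrays in cultures of microglia, the macrophages that reside in the brain. Members were taken by name, as every gene of the Psma, Psmb, Psmc, Psmd, Psme, Psmf and Psmg families whose probe set row named that gene alone, without Psmb8 and Psmb9. This gave 45 of 18976 genes, which is 0.237%. Where a gene had several rows, the row with the highest median expression was kept. One of the 45, Psmc3ip, is caught by its name only: it encodes a cofactor of meiotic recombination, not a part of the proteasome, and its values are named as such.

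The study compared 5 samples of microglia given 5 ng/ml recombinant human TGFb1 (transforming growth factor beta 1) for 24 h with 5 samples given no agent. All were wild type C57BL6 cells of newborn pups, shaken off mixed glial cultures of 14 days and kept without serum during treatment. The values that could be used are the authors' median expression per probe set over arrays, a linear intensity without a stated group. Values per array carried names that match no sample label, so no level below belongs to TGFb1-treated or to control cells, no difference between the groups was computed, and no SD can be given. The levels describe the cultures pooled, and the number of arrays limits their precision.

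The proteasome is the protease complex that degrades proteins marked with ubiquitin. Its barrel-shaped core is made of rings of alpha subunits, which gate the entry, and rings of beta subunits, some of which cut peptide bonds. A regulatory particle of ATPase and non-ATPase subunits sits on the core, binds ubiquitin chains, removes them and unfolds the substrate. In cells that see interferon gamma, other catalytic subunits and the activator formed by the products of Psme1 and Psme2 can be exchanged in, and microglia, like other macrophages, use the peptides made this way for antigen presentation on MHC class I.

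Proteasome genes were among the more strongly hybridising genes of these cultures. The median intensity of the 45 genes was 164, against 15.8 for the median of all genes, and their median percentile was 87.2. Of the 45, 42 lay above the median gene and 18 above the 90th percentile of all genes, an intensity of 209. The genes below the median gene were Psmg3, Psmc3ip and Psmb11. Probes differ in how well they bind and in how far they saturate, and array values are not scaled per length, so an order of intensities is an order of probe set signals and not of transcript numbers.

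**Figure D1:**
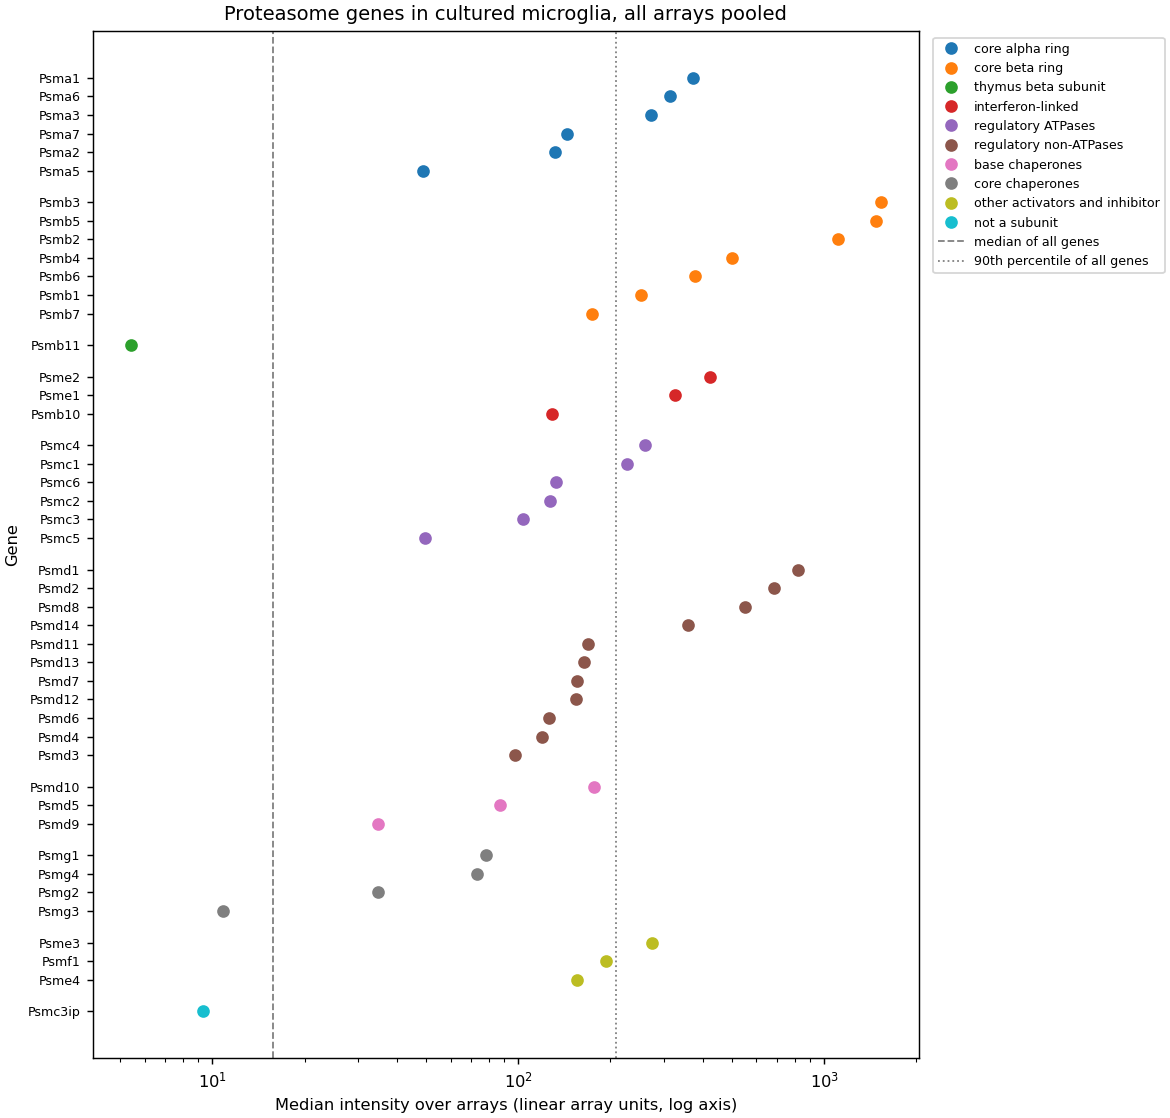
Median intensity over arrays (linear array units on a log axis) of the 45 genes, 1 point per gene, grouped by role, with dashed and dotted lines at the median (15.8) and the 90th percentile (209) of all genes. The beta ring holds the highest points, up to 1533 for Psmb3, and Psmb11 is the lowest at 5.41.

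The identity of the cells was read from markers first. All 7 markers of microglia and macrophages lay above the median gene and 6 of them above the 90th percentile, from 72.2 for Aif1 to 4757 for Cd68. Of 18 measured markers of astrocytes, oligodendrocytes, neurons, fibroblasts and endothelium, none lay above the 90th percentile and 5 lay above the median gene. Their intensities ranged from 4.31 for Gja1 to 58.0 for Cspg4. Of 6 markers of border macrophages and monocytes, Ms4a7, Mrc1 and Pf4 lay above the median gene, at 2052, 156 and 96.5, and Cd163, Lyve1 and Ccr2 below it, at 5.84, 10.6 and 3.23. What share of the proteasome signal such other cells gave was not tested.

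Within the core, the 7 genes of the constitutive beta ring had a median intensity of 500 and all lay between percentiles 88.0 and 99.1. Psmb3 (probe set 10380815) had the highest intensity of the 45 genes, 1533. Psmb5 (probe set 10419810) had 1479 and Psmb2 had 1112. Psmb5 encodes the catalytic subunit with chymotrypsin-like activity. The other catalytic subunits of the ring gave weaker signals, 378 for Psmb6, which has caspase-like activity, and 174 for Psmb7, which has trypsin-like activity and was the lowest of the 7. Psmb4 and Psmb1, which carry no active site, had 500 and 251. The highest and the lowest gene of the ring differed 8.81-fold in probe set signal.

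The 6 alpha ring genes with a row of their own had a median of 208. Psma1 was highest at 374, followed by Psma6 at 313 and Psma3 at 272. Psma7 and Psma2 followed at 144 and 132. Psma5 was far below the others, at 48.7 or percentile 68.0. A further row that Psma5 shares with the predicted gene Gm8394 had an intensity of 91.6, so its rows did not agree closely. Psma4 had no row of its own, and the row it shares with AY074887 had 134. The 13 genes of both rings had a median of 313, and 9 of them lay above the 90th percentile.

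In the regulatory particle the signals were lower, with a median of 156 over 17 genes, 6 of which lay above the 90th percentile. The 6 ATPases, which form the ring that unfolds and threads the substrate, had a median of 130. Psmc4 was highest at 260 and Psmc1 next at 227, while Psmc6, Psmc2 and Psmc3 lay close to each other at 132, 127 and 103. Psmc5 stood lowest at 49.6, percentile 68.3, which puts it beside Psma5 among the weakest core or regulatory subunits.

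The 11 non-ATPase subunits had a median of 164 and all lay above the 75th percentile. Psmd1 and Psmd2, the large scaffold subunits of the base, were highest with 819 and 686. Psmd8, a lid subunit, followed at 551, and Psmd14, the deubiquitinase that cleaves ubiquitin chains from the substrate, at 359. These were the 4 genes of the group above the 90th percentile. The other lid subunits Psmd11, Psmd13, Psmd7, Psmd12 and Psmd6 lay in a narrow band, at 169, 164, 156, 154 and 125. Psmd4, a receptor for ubiquitin chains, had 120. The lowest of the group was Psmd3, another lid subunit, with 97.6. A row that Psmd13 shares with its neighbour Sirt3 had an intensity of 19.4 and was not used.

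All 3 interferon-linked members lay above the 75th percentile, a range that held 37 of the 45 members. The labels list no interferon among the agents given. Psme2 (probe set 10420030) had an intensity of 422, percentile 95.4, and Psme1 (probe set 10415282) of 325, percentile 93.7. Both encode subunits of the same activator ring, which opens the core without ubiquitin or ATP. Psmb10 (probe set 10581378), the inducible catalytic subunit that takes the place of the Psmb7 product, had 129, percentile 84.1, against 174 for Psmb7. These signals came from different probe sets, so their ratio does not give the share of exchanged subunits. A row shared by Psme2 and the pseudogene Psme2b-ps had 318.

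Among the other activators, Psme3, which forms a nuclear activator ring, had an intensity of 273, and Psme4, a single-chain activator, of 155. Psmf1, first described as an inhibitor of the core, had 194. These 3 genes differed 1.76-fold between the highest and the lowest and lay between percentiles 86.5 and 92.5.

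Assembly chaperones had a lower median than either ring, the regulatory particle or the activators. The 7 chaperone genes had a median of 73.2, and none lay above the 90th percentile. Psmd10, Psmd5 and Psmd9, which help to build the ATPase ring, had intensities of 177, 86.8 and 34.8. Psmd10 encodes the protein known as gankyrin. Of the chaperones of the alpha ring, Psmg1 and Psmg2, whose products act as a pair, had 78.2 and 34.6. Psmg4 and Psmg3, which form another pair, had 73.2 and 10.8. Psmg3 alone among the chaperones lay below the median gene, at percentile 42.0. These levels are a description, and no test between groups of genes was made, since genes are not replicates.

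The members with the least signal were Psmb11 and Psmc3ip. Psmb11, the beta subunit of cortical thymic epithelium, had an intensity of 5.41, percentile 20.5, and Psmc3ip had 9.28, percentile 37.7. Psmb11 is also the direct neighbour of Psmb5 in the RefSeq annotation of GRCm38.p6, on chromosome 14 with no coding gene between them. The neighbours thus stood near opposite ends of the family, at 5.41 and 1479. Psme1 and Psme2 also lie on chromosome 14, with 1 coding gene between them, and had 325 and 422. Psmb4 and Psmd4 on chromosome 3, with 4 coding genes between them, had 500 and 120. In all, the 45 genes lie on 15 chromosomes.

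Rows of the same gene could be compared in the 4 members with several rows of their own. The 3 rows of Psma3 had intensities of 227, 261 and 272. The rows of Psmb3 had 1442 and 1533, and those of Psmd2 had 592 and 686. Psmc1 had the widest spread, with 165 and 227, a ratio of 1.38. In each of these genes all rows list the same RefSeq transcript. Whether their probes read the same sequence was not tested, so their closeness does not measure how far a level depends on the probe set. The ratio of highest to lowest row had a median of 1.18 over these 4 genes. Rows shared with another gene were not counted, with 91.6 for Psma5, 318 for Psme2 and 19.4 for Psmd13. The rows of these genes alone had 48.7, 422 and 164. Over all 1185 genes with several rows the median ratio was 2.10 and the 90th percentile of the ratios 13.3. Differences in signal between proteasome genes, also the 8.81-fold span of the beta ring, therefore cannot be told apart from differences between probe sets.

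**Figure D2:**
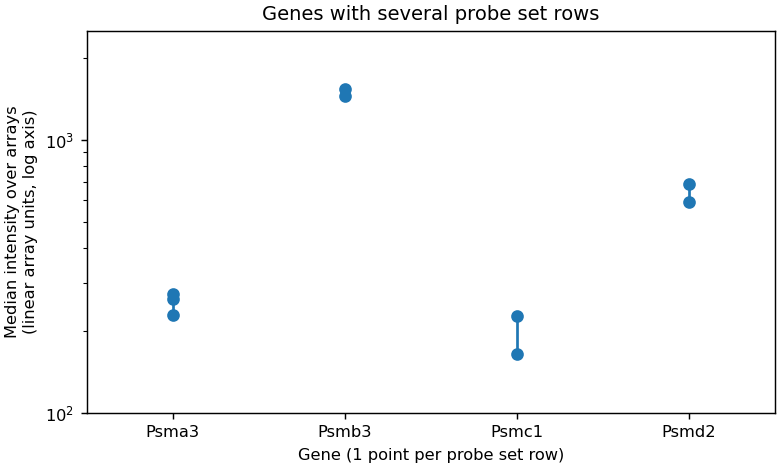
Median intensity over arrays (log axis) of each probe set row of the 4 members with several rows, 1 point per row, joined by a line within a gene. Rows of 1 gene lie within 1.06-fold (Psmb3) to 1.38-fold (Psmc1) of each other, while the genes span from 165 to 1533.

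Annotation deposited with the table gave a readout that was not taken from these arrays, though over all genes it rose with the array signal. The list of tissues and stages in which transcripts of a gene had been collected held a median of 42 entries for the 45 genes, against 19 for all genes. Brain was among them for 42 of the 45 genes, which is 93.3%, against 67.6% of all genes. A list was present for 44 members and for 16913 of the 18976 genes. Genes without a list were kept in these medians and shares and counted as lacking brain, which lowers the values of all genes more. The 3 genes without a brain entry were Psmb11 with 6 entries, Psmc3ip with 18 and Psmg3, which had no list at all. These were also the 3 members below the median gene in intensity. Among genes with any entry, the number of entries and the intensity had a Spearman's rho of 0.20 over 44 members and of 0.74 over 16913 genes. Over the 42 members above the median gene the rho was 0.08. Genes share the arrays and are not independent, so these values describe the table only. Psme2 had the fewest entries among members with a brain entry, 19, and the 8th highest intensity.

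**Figure D3:**
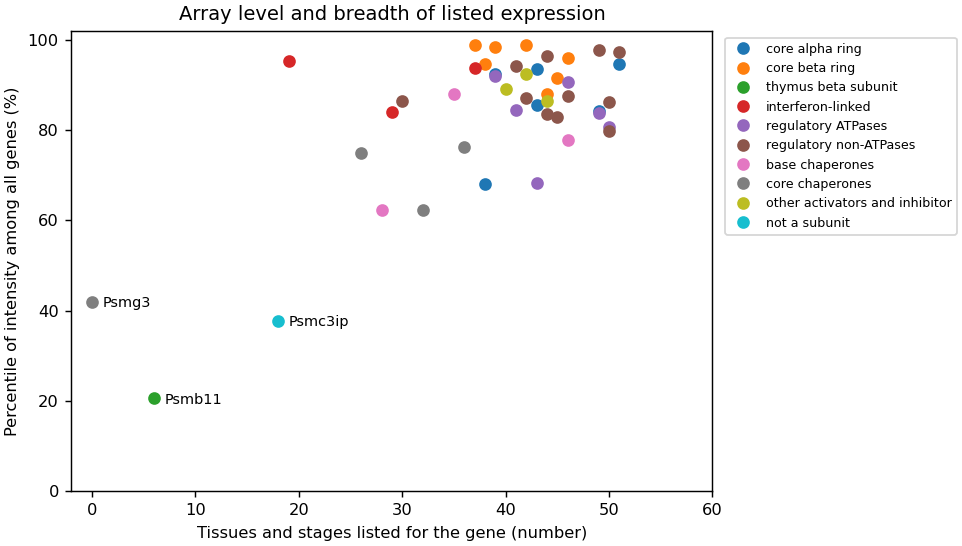
Number of tissues and stages listed for a gene (x axis) against the percentile of its intensity among all 18976 genes (y axis), 1 point per member, coloured by role. Psmb11, Psmc3ip and Psmg3, the members without a brain entry, are named and lie below the 50th percentile, and the other 42 lie above it.

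The KEGG proteasome pathway was assigned to 37 of the 45 genes. The 8 genes without it were the 7 chaperones and Psmc3ip, with intensities from 9.28 to 177 and a median of 54.0. The genes with it had a median of 194. A cellular component term that names the proteasome stood beside 41 genes, and the 4 without one were Psmg1, Psmg2, Psmg3 and Psmg4. Psmc3ip carries that term too.

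Genes that work with the proteasome were read from a list of 27 genes, 21 of which had a row of their own. All 21 lay above the median gene and 9 above the 90th percentile, with a median intensity of 189. Ngly1, a deglycosylase, was lowest at 46.8. Uba1, the main ubiquitin-activating enzyme, had 545. Vcp, the ATPase that extracts ubiquitinated proteins, had 341, and its cofactors Nploc4 and Ufd1l had 656 and 132. Nfe2l1, the transcription factor that raises proteasome genes when the complex is inhibited, had 246. Pomp, the chaperone that completes the core, had 173. The ubiquitin receptor Adrm1 had 203 and Uchl5, a deubiquitinase that docks on it, 48.6. Shfm1, which encodes the smallest subunit of the regulatory particle, had 64.6.

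Promoter sequence was the last shared feature examined. RefSeq windows of 300 bases, from 250 before to 50 after an annotated start in GRCm38.p6, were matched by symbol for 38 of the 45 genes and gave 41 windows, since Psma6, Psmc2 and Psme2 have 2 annotated starts each. Their median GC content was 57.3%, against 52.7% over all 32851 windows, and they held a median of 19 CG pairs against 7. All windows belong to 27025 RefSeq symbols and were not limited to the 18976 genes of the arrays. The 41 windows include 1 of Psmc3ip. Upstream stretches of 4 genes are printed to show what these windows look like. Psmb5 and Psmb11 are neighbours with opposite levels, Psmd2 is a regulatory subunit with a strong probe set signal, and Psme1 is interferon-linked. Each runs 5′ to 3′ over the 250 bases before the start on the strand of the gene, with matches of the motifs searched in capitals. In Psmb5 (chr14:54617996-54618245, minus strand) the capitals mark an antioxidant response element core, 39 to 47 bases before the start. In Psmb11 (chr14:54625060-54625309, plus strand) they mark a CCAAT box. In Psmd2 (chr16:20651402-20651651, plus strand) they mark a GC box and then an ETS core on the opposite strand, 20 to 26 bases before the start, and in Psme1 (chr14:55578244-55578493, plus strand) a GC box.
Psmb5: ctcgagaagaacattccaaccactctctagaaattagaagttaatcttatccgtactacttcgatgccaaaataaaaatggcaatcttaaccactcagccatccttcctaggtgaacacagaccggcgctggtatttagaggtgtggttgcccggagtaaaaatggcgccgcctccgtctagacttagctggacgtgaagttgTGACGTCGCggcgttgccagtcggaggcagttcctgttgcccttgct
Psmb11: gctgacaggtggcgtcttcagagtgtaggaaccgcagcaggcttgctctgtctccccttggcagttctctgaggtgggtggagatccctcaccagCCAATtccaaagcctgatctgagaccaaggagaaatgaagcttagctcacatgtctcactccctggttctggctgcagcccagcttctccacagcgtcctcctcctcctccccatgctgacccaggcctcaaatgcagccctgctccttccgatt
Psmd2: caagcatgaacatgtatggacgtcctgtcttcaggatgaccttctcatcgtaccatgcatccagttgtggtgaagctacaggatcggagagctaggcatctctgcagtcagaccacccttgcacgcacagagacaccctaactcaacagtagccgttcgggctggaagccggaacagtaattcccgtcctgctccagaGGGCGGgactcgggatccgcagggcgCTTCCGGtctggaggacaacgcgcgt
Psme1: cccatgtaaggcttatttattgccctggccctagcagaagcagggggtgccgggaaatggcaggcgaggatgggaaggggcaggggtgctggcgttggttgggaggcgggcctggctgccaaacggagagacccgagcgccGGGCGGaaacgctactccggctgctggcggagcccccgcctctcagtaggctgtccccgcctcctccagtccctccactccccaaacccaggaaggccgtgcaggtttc

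The ETS core, CCGGAAG, stood in 16 of 41 windows, which is 39.0%, against 8.86% of all windows. Without Psmc3ip, which holds it too, these were 15 of 40, or 37.5%. ETS factors are a large family of activators bound at many housekeeping promoters. The ETS core was held by 4 of 6 windows of regulatory ATPase genes, which include both starts of Psmc2, and by 6 of 9 of non-ATPase genes. It stood in 1 of 7 alpha ring windows and 0 of 4 beta ring windows. The beta ring has 7 genes and the non-ATPase group 11, so some genes of both had no window and were not searched. The GC box, GGGCGG, stood in 22 of the 41, 53.7%, against 35.7% of all windows, and the TATA box, TATAAA, in 3 of 41, 7.32%, against 13.6%. The CCAAT box was found in 34.1% of the 41 windows, 32.5% without Psmc3ip, and in 37.4% of all windows. It stood in 5 of 7 alpha ring windows. The antioxidant response element core, TGACNNNGC, is read by factors of the Nfe2l1 kind. It was found in 6 windows, those of Psmb5, Psmb6, Psmc6, Psmd12, Psmd9 and Psme4, 14.6% against 12.4% of all windows. Both strands were searched for every motif. A match is a run of letters and not a bound site, and GC-rich motifs occur more often in windows of high GC content, whose part in the ETS and GC box shares was not tested.

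Motifs of the interferon pathway were searched because of Psmb10, Psme1 and Psme2. The interferon-stimulated element core, GAAANNGAA, stood in 7 of 41 windows, 17.1%, against 8.56% of all windows. Its windows were those of Psmb3, Psmb4, Psmc2, Psmd4, Psmd9, Psmg4 and Psme1, so Psme1 was the only interferon-linked gene among them, and its match lay outside the printed bases. The gamma-activated site, TTCNNNGAA, stood in 2 windows, 4.88% against 8.30%. They were those of Psmg1 and of Psmd2, where the match did not lie within the printed bases. None of the 4 windows of the interferon-linked genes held this site. These windows are short, and a run absent from them may lie elsewhere.

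**Figure D4:**
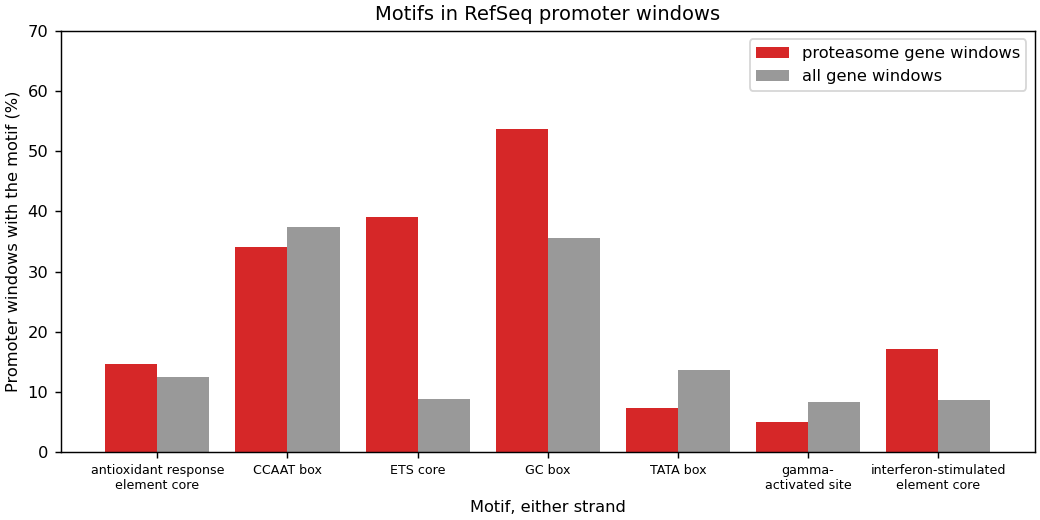
Share of promoter windows (y axis, %) that hold each of 7 motifs on either strand. Red bars are 41 windows of the members, Psmc3ip included, and grey bars all 32851 windows, which belong to 27025 RefSeq symbols. The ETS core shows the widest gap, 39.0% against 8.86%, while the antioxidant response element core has 14.6% against 12.4%.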

How the data were processed

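RNA of 10 samples, 5 TGFb1 and 5 control, was labelled with biotin and hybridised to Affymetrix whole transcript arrays per the labels. The submitters' processing notes name RMA; its version and the genome build are not given in the sources used here, and the paper names an array model for sorted microglia, prepared with another protocol, but not for these cultures. Probe set coordinates are therefore not printed. The deposited table holds 28361 rows. The value used is the linear intensity that the authors deposited as median expression per row, pooled over arrays. Another 10 columns of values per array match no sample label and were not used. A further 5 columns hold the authors' own paired comparison, as an effect in 3 forms and a Bayes test with its false discovery rate, and were not used either. The planned limma fits therefore could not be made.

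Of the rows, 21041 name 1 symbol, 2247 several, 5061 none and 12 a date. The row with the highest median per symbol gave 18976 genes. A percentile is the percent of these genes with a lower intensity. Named genes were all members that the rule for naming took: the interferon-linked ones, Psmb5, Psmb6 and Psmb7, and the highest and lowest of each group. The others were named to account for every member. One gene of the companion list is counted but not reported here by name. Members, groups, lists and motifs were chosen with earlier results of these data known. Promoter windows and gene order came from RefSeq tables of GRCm38.p6. Percentile and motif steps were tested on simulated data. Python 3.11.15, numpy 2.4.6, pandas 2.3.3, scipy 1.17.1 and matplotlib 3.10.9 were used.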

Additional observations from a re-analysis of the deposited data

How the results depend on the processing

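No paired analysis was possible because the columns of values per array match no sample label, and for the same reason other forms of the comparison (without the block, filtered, every row, leaving out a pair, with a trend) were not run. For the levels, the median percentile of the members was 88.1 with the lowest row of each symbol, 87.0 among all rows with 1 symbol and 87.5 among all rows, against 87.2. In these 3 settings the same 42 members lay above the median gene, and 18 above the 90th percentile, of which 17 were shared with the lowest row and all 18 with the other settings. After seeing the data, members with several rows or a shared row were left out, which left 38 genes with a median percentile of 86.4 and a median intensity of 155. Without Psmb11 and Psmc3ip, 43 genes gave 87.5 and 169. No count moved by over 1.5 times. Pooled medians carry no spread between arrays, so the precision of each level is unknown, and signals near the bottom of the range, such as that of Psmb11, cannot be told apart from array background here.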
